A study of Rattus norvegicus with 90 samples.

Results

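The transcripts described here are those that were higher after thioacetamide-S-oxide in rat hepatocytes, renal tubular cells and cardiomyocytes alike, 9 h into exposure to the high dose. They were selected on the deposited data themselves. For each transcript the log2 ratio of the mean CPM (the estimated count scaled to a library total of 1000000 on transcripts) of the high-dose libraries to that of the vehicle libraries, with 1 CPM added to both, was taken in each cell type at 9 h. Transcripts were ranked by the smallest of their 3 ratios, and the first 150 with a value above 0.3 were kept. Of 40071 transcripts in the tables, 11421 reached a mean of 2 CPM over the vehicle and high-dose libraries at 9 h in every cell type and could be ranked. Among these, 170 had all 3 ratios above 0.3, and 213 had all 3 below -0.3.

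Cells of Sprague-Dawley rats were cultured and then exposed for 9 or 24 h to vehicle, which was maintenance medium, or to a low or high dose of thioacetamide-S-oxide. Hepatocytes received 0.025 mM as the low and 0.125 mM as the high dose, the renal tube epithelial cells, called renal cells here, 0.125 and 0.5 mM, and cardiomyocytes 0.5 and 1.5 mM. Each of the 18 combinations of cell type, dose and time had 5 libraries of poly-A RNA, 90 in all. A given dose name stands for different concentrations in the 3 cell types. For hepatocytes and renal cells the doses were set to be mildly toxic, and how those of cardiomyocytes were set is not given in the sources used here. The 0.125 mM dose was the high dose of hepatocytes and the low dose of renal cells, and 0.5 mM was the high dose of renal cells and the low dose of cardiomyocytes. The hepatocytes and renal cells came from commercial cryopreserved lots. The labels do not tie libraries to animals, so the p-values below measure the spread between libraries only.

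Thioacetamide is a liver toxicant that becomes harmful through oxidation. Liver enzymes turn it first into thioacetamide-S-oxide and then into a reactive S,S-dioxide that binds to proteins and lipids. Giving the S-oxide directly to cells skips the first step. Cells of different tissues answer reactive chemicals partly through shared programmes, such as those for damaged proteins, oxidative stress, amino acid shortage and DNA damage, and partly through genes particular to the tissue.

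No gene symbol could be attached to the transcripts, because 0 of the 40071 Ensembl identifiers matched the gene table at hand. Transcripts are therefore named by identifier, with no statement on what they encode, and neither pathway lists nor cell type markers could be read. The cell type labels were compared instead by similarity. In 89 of 90 libraries the most similar other library, over 17555 transcripts, was of the same cell type. The exception was MS-183, a hepatocyte library with vehicle at 24 h, which held 249303 transcript counts where the remaining 89 held 10519414 to 55822031. Transcripts took 8.33% of all its counts, against 84.1% to 95.3% in the remaining 89. Low CPM values in MS-183 therefore rest on few counts. It was kept in the main fits. In 3 further libraries the 10 most abundant transcripts took an unusual share of counts, namely 30.7% in MS-145 (renal cells, low dose, 24 h), 30.8% in MS-158 (cardiomyocytes, low dose, 9 h) and 34.2% in MS-172 (cardiomyocytes, low dose, 24 h). The other libraries of those groups held 8.06% to 12.8% there. None of these 4 libraries entered the selection. MS-178 (cardiomyocytes, high dose, 24 h), also outside the selection, detected 18015 transcripts, where the other libraries of its group detected 22745 to 23668. The hepatocyte vehicle libraries at 24 h are numbered MS-181 to MS-185, after all other libraries, and the labels do not say whether they were prepared apart. The other hepatocyte libraries end at MS-105 for 9 h and start at MS-111 for 24 h, and no library holds a number between these. In bulk RNA, fewer cells of a kind and less RNA per cell cannot be told apart.

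At 9 h, the quantities that chose the transcripts ran as follows and carry no test. The median log2 ratio of high dose to vehicle over the 150 transcripts was 0.58 in hepatocytes, 0.54 in renal cells and 0.51 in cardiomyocytes. Over all 11421 ranked transcripts the medians were -0.09, -0.01 and 0.07. Most increases were modest, since 32 of the 150 had a smallest ratio above 0.5 and 4 had all 3 ratios above 1. The cell type with the smallest ratio was hepatocytes for 52 transcripts, renal cells for 49 and cardiomyocytes for 49, so no single cell type set the limit. The last 2 transcripts kept, ENSRNOT00000002476 and ENSRNOT00000003070, and the first 2 left out, ENSRNOT00000023460 and ENSRNOT00000002992, all had a smallest ratio of 0.31.

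The separation between libraries was usually complete. All 5 high-dose libraries lay above all 5 vehicle libraries for 78% of the 150 transcripts in hepatocytes (13.4% of ranked transcripts did so), for 90.7% in renal cells (24.7%) and for 84% in cardiomyocytes (27.8%). This held in all 3 cell types at once for 107 transcripts, or 71.3%, against 2.7% of ranked transcripts. The rule used these same libraries, so nothing beyond a description is read from these shares. In cardiomyocytes at 9 h the vehicle libraries held 17583672 to 25562619 transcript counts and the high-dose libraries 40216151 to 44028858. Depth thus differed with dose there, and its part in these values was not tested. When each of the 30 libraries behind the rule was left out in turn, between 90.7% and 98.7% of the 150 were chosen again, and 68.7% were chosen every time.

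The transcript with the largest smallest ratio was ENSRNOT00000005085, of 1888 bases. In hepatocytes at 9 h its vehicle libraries held 91.99, 98.7, 121.7, 141.4 and 166.1 CPM and its high-dose libraries 412, 436, 441, 445 and 505 CPM. In renal cells the vehicle libraries held 52.97, 53.5, 54.2, 55.3 and 57.6 CPM and the high-dose libraries 168.2, 174.8, 175.4, 180.5 and 202 CPM. The level was far lower in cardiomyocytes, at 2.81, 3.35, 3.41, 3.49 and 3.66 CPM with vehicle and 9.07, 9.41, 11.2, 16.7 and 18.3 CPM at the high dose. In each cell type the high-dose libraries stood clear of the vehicle libraries, with log2 ratios of 1.84, 1.70 and 1.68. The starting level thus differed widely between cell types for a change of like size.

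ENSRNOT00000047634, of 3194 bases, had a larger ratio where its level was lower. Its hepatocyte libraries held 236, 258, 314, 342 and 412 CPM with vehicle and 846, 881, 934, 938 and 1059 CPM at the high dose, a log2 ratio of 1.57. Renal cells went from 37.3, 37.4, 38.04, 38.6 and 39.8 CPM to 172.8, 173.7, 178.6, 185.9 and 196 CPM, a log2 ratio of 2.22. Cardiomyocytes went from 34.6, 35.2, 35.3, 36.9 and 38.7 CPM to 205, 206, 215, 238 and 257 CPM, a log2 ratio of 2.60. The highest vehicle library was well below the lowest high-dose library in every cell type.

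The other 2 transcripts with all 3 ratios above 1 had whole-number counts (within 1e-06) in all 90 libraries, as is the case where Kallisto divides no reads with other targets. ENSRNOT00000027891, of 1663 bases, had log2 ratios of 1.53 in hepatocytes, 1.60 in renal cells and 1.95 in cardiomyocytes. ENSRNOT00000018889, of 2419 bases, held 62.8, 64.8, 70.5, 70.5 and 71.1 CPM with vehicle and 130.6, 132.9, 134.7, 140.8 and 156.6 CPM at the high dose in hepatocytes. In renal cells it held 51.5, 52.2, 52.99, 53.2 and 53.98 CPM with vehicle and 164.7, 167.9, 169.2, 172.02 and 175.95 CPM at the high dose. In cardiomyocytes it held 18.5, 20.1, 20.3, 21.1 and 21.4 CPM with vehicle and 87.4, 87.9, 92.6, 107.95 and 110.4 CPM at the high dose. The ratio of this transcript was 1.02, 1.67 and 2.21 in that order, and no library crossed between the groups.

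The next 4 by rank were ENSRNOT00000075167, ENSRNOT00000044788, ENSRNOT00000080797 and ENSRNOT00000014348, with smallest ratios of 0.98, 0.98, 0.97 and 0.96. ENSRNOT00000044788, of 2027 bases, had the largest hepatocyte ratio of all 150, at 1.99, and 1.93 in renal cells. ENSRNOT00000080797 was a different case, because its level swung between libraries of the same group. Its hepatocyte libraries at 9 h held 3.93, 6.57, 9.41, 20.005 and 26.1 CPM with vehicle and 2.77, 16.3, 18.5, 42.6 and 53.5 CPM at the high dose. The vehicle range lies within that of the high dose. In renal cells its vehicle libraries held 3.71 CPM in MS-121 and at most 0.0141 CPM in the others, and its high-dose libraries 21.8 CPM in MS-132, 4.93 CPM in MS-131 and at most 0.0152 CPM in the others. Without MS-132 the renal ratio fell from 1.86 to 0.36, and the mean over these renal libraries from 3.04 to 0.963 CPM, below the minimum of 2 CPM, so the place of ENSRNOT00000080797 among the 150 rested on that library. Its counts were whole in 4 of 90 libraries, so its level depends on how shared reads were divided.

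**Figure D1:**
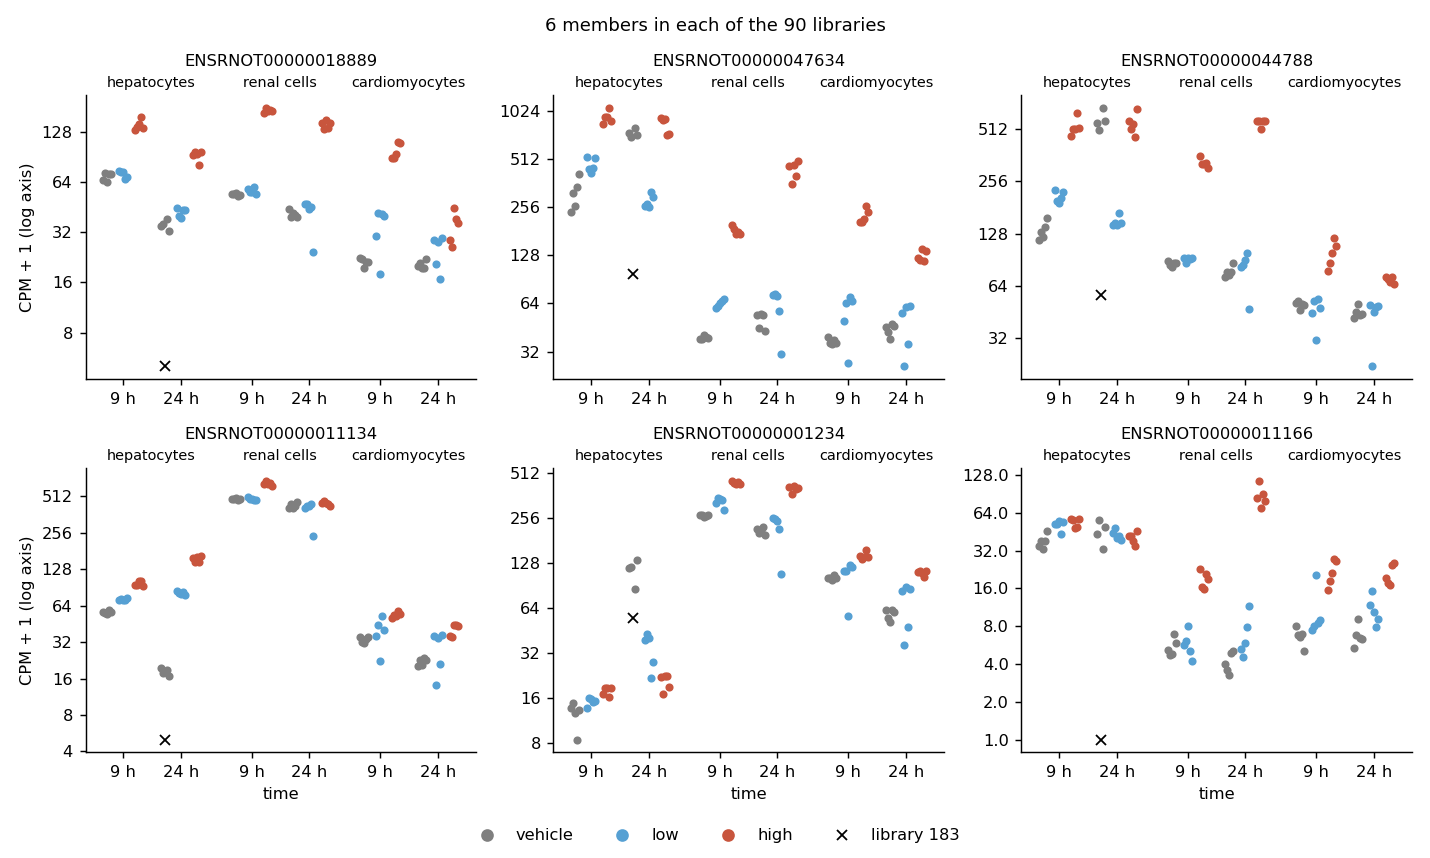
CPM plus 1 (log axis) of 6 of the transcripts in each of the 90 libraries, by cell type, time and dose, with 1 point per library and a cross for hepatocyte vehicle library MS-183. ENSRNOT00000044788 in hepatocytes sits at 467 to 636 CPM in the high-dose libraries at 9 h against 117.4 to 157.1 CPM with vehicle, while at 24 h the vehicle libraries other than MS-183, at 506 to 675 CPM, overlap the high-dose ones, at 461 to 671 CPM.

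The 150 transcripts were ordinary in length and in starting level. Their median length was 2412.5 bases, with a range from 253 bases (ENSRNOT00000067860) to 14828 bases (ENSRNOT00000076783), and the median of all ranked transcripts was 2253 bases. The median vehicle level at 9 h was 27.1 CPM in hepatocytes, 30.3 CPM in renal cells and 21.7 CPM in cardiomyocytes, beside 27.5, 29.7 and 27.0 CPM over ranked transcripts. In 90 of the 150 the vehicle mean reached 10 CPM in all 3 cell types. A vehicle level that differed over 10-fold between cell types was found for 14 of them, or 9.33%, against 5.95% of ranked transcripts. By the same tolerance of 1e-06, counts were whole in all 90 libraries for 62 of the 150, or 41.3%, and for 38.5% of ranked transcripts. For the other 88 the level depends in part on how reads shared between transcripts were divided, so these values are less certain.

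The low dose at 9 h was set against the same vehicle libraries that the rule used, so its values are given side by side with no test. In hepatocytes the median log2 ratio of low dose to vehicle was 0.25, and the ratio was above 0 for 94% of the 150 transcripts, beside 44.9% of ranked transcripts. In renal cells the median was 0.08 with 94 above 0 (62.7%, beside 47.3% of ranked), and in cardiomyocytes it was 0.08 with 91 above 0 (60.7%, beside 40.3%). The mean of the low-dose libraries lay above that of vehicle and below that of the high dose for 90.7% of the 150 in hepatocytes, 56% in renal cells and 53.3% in cardiomyocytes, where 24.5%, 20.7% and 21.5% of ranked transcripts did. Among the other ranked transcripts whose high-dose ratio exceeded 0.3 in the same cell type, 90.8%, 66.9% and 62.2% did, so the shares of the 150 were not above those of other transcripts higher at the high dose. Over ranked transcripts the medians were -0.02, -0.01 and -0.06. All 5 low-dose libraries exceeded all 5 vehicle libraries for 51 transcripts in hepatocytes (34%, beside 5.62% of ranked transcripts), 31 in renal cells (20.7%, beside 11.3%) and 14 in cardiomyocytes (9.33%, beside 4.89%). Without MS-158, the cardiomyocyte median was 0.15 (0.04 over ranked transcripts), 76% were above 0 (58.8% of ranked) and 38 had all remaining low-dose libraries above all vehicle libraries (25.3%, beside 16.5% of ranked).

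A low-dose shift of like size was seen in other transcripts too. Among the other ranked transcripts whose high-dose ratio in the same cell type exceeded 0.3, the median low-dose ratio was 0.23 in hepatocytes, 0.10 in renal cells and 0.12 in cardiomyocytes. The values at equal concentration follow as a description, since the rule required the high-dose ratios to exceed 0.3 and set no limit on the low-dose ones. At 0.125 mM the 150 had a median ratio of 0.58 in hepatocytes and 0.08 in renal cells at 9 h. At 0.5 mM the median was 0.54 in renal cells and 0.08 in cardiomyocytes. ENSRNOT00000044788 had a ratio of 1.99 in hepatocytes and 0.09 in renal cells at 0.125 mM, and of 1.93 in renal cells and -0.12 in cardiomyocytes at 0.5 mM. Both cardiomyocyte values at 0.5 mM include MS-158, and without it the median over the 150 was 0.15. By library, the medians of the high dose at 9 h ranged from 0.53 to 0.70 in hepatocytes, from 0.50 to 0.63 in renal cells and from 0.42 to 0.62 in cardiomyocytes. Those of the low dose in cardiomyocytes ranged from 0.06 to 0.17, apart from -0.43 in MS-158.

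**Figure D2:**
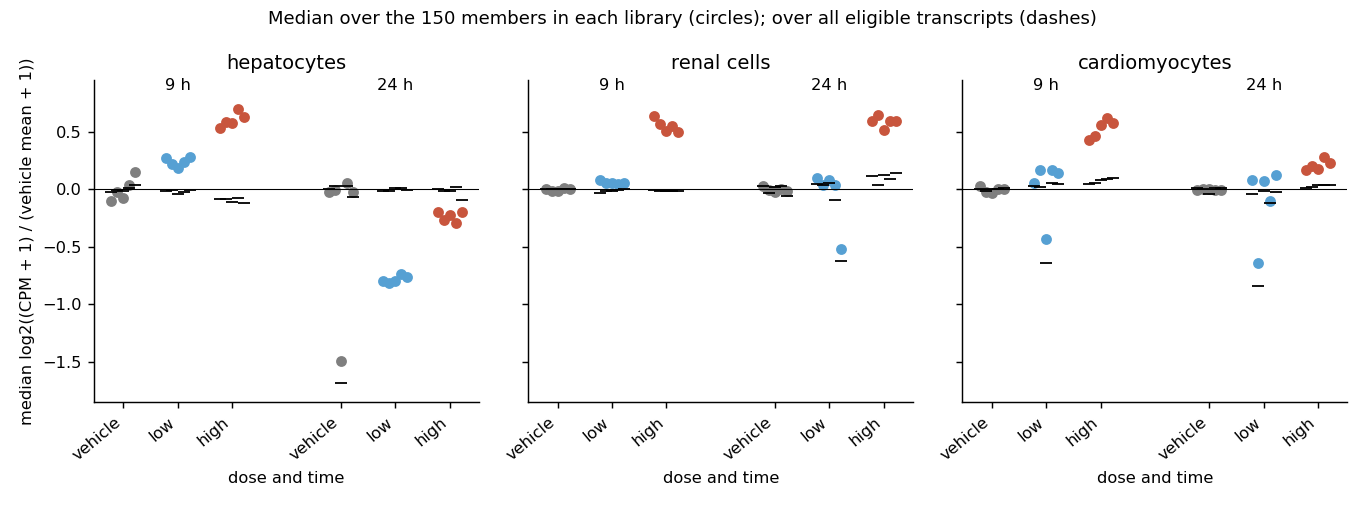
Median over the 150 transcripts (circles) and over all 11421 ranked transcripts (dashes) of the log2 difference of each library from the vehicle mean of its cell type and time, the vehicle mean of hepatocytes at 24 h being taken without MS-183. At 24 h the 5 high-dose libraries sit at 0.52 to 0.65 in renal cells and at 0.17 to 0.28 in cardiomyocytes, and at -0.29 to -0.20 in hepatocytes, where MS-183 lies at -1.49.

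The 24 h libraries took no part in the selection, and there the transcripts were tested. The fits were edgeR quasi-likelihood fits over all transcripts that passed the count filter, with Benjamini-Hochberg adjustment over all of them. A transcript was called higher or lower with an adjusted p of at most 0.05 and a change of at least 0.41 on the natural log scale in either direction. In renal cells at 24 h, 63 of the 150 (42%) were called higher at the high dose than with vehicle, where 12% of all 17798 tested transcripts were, and 0 were called lower, where 14.9% of all were. The median log2 fold change was 0.55, against 0.02 over all tested, and 140 of 150 were above 0. At an unadjusted p below 0.05, 3 were lower (28.8% of all tested), and DESeq2 and limma each called 0 lower (15.1% and 13.7% of all). Against the low dose, 53 were higher (8.38% of all tested) and 1 lower (11.3% of all), ENSRNOT00000023452, at -0.59 ± 0.12 (SE, edgeR adjusted p = 0.0037), a transcript named after its value was seen. Its change was close to the limit on size. The lower count was 0 without a count filter (6.6% of all), with limma (10.2%) and with 15 libraries in 1 fit (12.7%). It stayed 1 with DESeq2 (12.5%) and upper-quartile normalization (11.6%).

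The largest rise in renal cells at 24 h was that of ENSRNOT00000011166, of 4913 bases. Its vehicle libraries held 2.27, 2.59, 3.02, 3.91 and 4.08 CPM and its high-dose libraries 68.7, 78.999, 83.2, 89.8 and 113.5 CPM. The low-dose libraries held 3.51, 4.26, 4.85, 6.84 and 10.6 CPM and overlapped the vehicle range. The high-dose libraries stood far above both, with a log2 fold change over vehicle of 4.69 ± 0.21 (SE, n = 5 per group, edgeR adjusted p = 2.75e-08). At 9 h the same transcript had gone from 3.69 to 5.89 CPM with vehicle to 14.7 to 21.7 CPM at the high dose, so the high-dose level was greater at 24 h. Its counts were whole in 1 of 90 libraries.

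Several of the highest-ranked transcripts stayed high in renal cells. For ENSRNOT00000047634 the vehicle libraries at 24 h held 41.97, 44.1, 52.9, 53.2 and 53.8 CPM and the high-dose libraries 355, 396, 463, 468 and 496 CPM. The groups lay far apart, with a log2 fold change of 3.09 ± 0.09 (SE, edgeR adjusted p = 1.24e-09). ENSRNOT00000044788 held 71.6, 72.7, 76.3, 76.3 and 85.9 CPM with vehicle and 509, 568, 568, 569 and 569.9 CPM at the high dose, a rise of 2.80 ± 0.08 (SE, edgeR adjusted p = 9.39e-10). ENSRNOT00000027891, ENSRNOT00000018889 and ENSRNOT00000005085 were also called higher, by 2.03 ± 0.13, 1.75 ± 0.04 and 1.37 ± 0.10 on the log2 scale (SE), and ENSRNOT00000026652, of 912 bases, by 2.76 ± 0.08 (SE). Others did not keep the difference. ENSRNOT00000014348, at 201 to 234 CPM in the high-dose libraries at 9 h and 89.96 to 100.2 CPM with vehicle, held 76.5, 77.9, 82.3, 83.4 and 92.8 CPM at 24 h at the high dose against 80.2, 82.4, 83.8, 86.1 and 89.8 CPM with vehicle. These ranges overlap, and the log2 fold change was -0.09 ± 0.07 (SE, edgeR adjusted p = 0.335).

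The low dose left no called difference in renal cells at 24 h. Of the 150, 0 were called higher and 0 lower than vehicle by edgeR, and DESeq2 and limma called 0 in either direction. Of all 17684 tested, edgeR called 0.0452% higher and 0.017% lower. DESeq2 called 0.209% of all higher and 0.151% lower, and limma 0.0452% and 0.017%. With shares this small, 0 calls among the 150 are no result about them in particular. At an unadjusted p below 0.05, 16 of the 150 were higher (3.05% of all) and 2 lower (3.29% of all). The median log2 fold change was 0.09. Library MS-145 belongs to this group, and without it 2 were called higher (0.206% of all).

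In cardiomyocytes at 24 h, 31 of the 150 (20.7%) were called higher at the high dose than with vehicle, where 6.01% of all 17286 tested transcripts were, and 0 were called lower, where 6.39% of all were. At an unadjusted p below 0.05, 9 were lower (20.1% of all tested), and DESeq2 and limma each called 1 lower (7.16% and 6.7% of all). The median log2 fold change was 0.20, against 0.003 over all tested. Without MS-178, 30 were called higher (6.42% of all) and 0 lower (7.54% of all). The largest rise was that of ENSRNOT00000026559, of 3474 bases. It held 16.6, 19.4, 23.3, 25.01 and 26.9 CPM with vehicle and 141.9, 155.5, 160.7, 172.1 and 187.02 CPM at the high dose, with no overlap and a log2 fold change of 2.86 ± 0.13 (SE, edgeR adjusted p = 4.7e-08). Its low-dose libraries ran from 0 CPM in MS-172 through 20.8, 37.8 and 46.1 to 49.8 CPM. Its counts were whole in 3 of 90 libraries.

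ENSRNOT00000026652 rose by 2.53 ± 0.12 in cardiomyocytes (SE, edgeR adjusted p = 6.72e-08) and ENSRNOT00000001916 by 1.61 ± 0.06 (SE, edgeR adjusted p = 1.09e-08). The latter had the highest vehicle level of the 150 at 9 h when averaged over the 3 cell types, with a mean of 5044 CPM in renal cells and 1464 CPM in cardiomyocytes but 18.7 CPM in hepatocytes. ENSRNOT00000047634 held 37.4, 41.4, 44.7, 45.2 and 46.6 CPM with vehicle and 116.99, 118.7, 122.1, 135.8 and 139.8 CPM at the high dose, a rise of 1.55 ± 0.07 (SE, edgeR adjusted p = 4.91e-08). For ENSRNOT00000018889 the vehicle libraries held 18.5, 18.6, 18.98, 19.8 and 20.9 CPM and the high-dose libraries 25.1, 27.8, 35.2, 37.5 and 43.7 CPM. The rise was 0.79 ± 0.13 (SE, edgeR adjusted p = 0.000865).

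Against the low dose, 16 of the cardiomyocyte transcripts were higher at the high dose (2.11% of all tested) and 1 was lower (3.53% of all), ENSRNOT00000021996, at -1.35 ± 0.27 (SE, edgeR adjusted p = 0.0128), again named after its value was seen. Without MS-172, 19 were higher (3.71% of all) and 1 lower (4.7% of all). The low dose itself gave 0 calls higher (0% of all 16998 tested) and 0 lower (0% of all) against vehicle by edgeR. DESeq2 called 5 higher (0.971% of all) and 0 lower (0.227% of all), and limma 0 in either direction (0% of all in each). At an unadjusted p below 0.05, 29 were higher (7.62% of all) and 3 lower (4.31% of all), and without MS-174 edgeR called 3 higher (0.553% of all). ENSRNOT00000078034 did not pass the count filter of the comparison of low dose with vehicle, nor ENSRNOT00000073270 that of high with low dose.

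In hepatocytes at 24 h the answer depended on what the high dose was compared with. Against the low dose, 67 of the 150 (44.7%) were called higher at the high dose, where 6.58% of all 16891 tested were, and 2 lower, where 8.34% of all were. The median log2 fold change was 0.58, and 94.7% were above 0. The 2 lower were ENSRNOT00000001234 and, named after its value was seen, ENSRNOT00000046313, at -0.74 and -0.60. ENSRNOT00000075167 held 7.85, 9.08, 9.14, 9.30 and 10.3 CPM at the low dose and 25.002, 30.04, 36.9, 40.3 and 40.5 CPM at the high dose. The groups stood apart, with a log2 fold change of 1.94 ± 0.13 (SE, edgeR adjusted p = 2.43e-06).

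Against vehicle the direction was mostly the other way. At the high dose, 3 of the 150 (2%) were called higher, where 6.65% of all 16325 tested were, and 17 (11.3%) lower, where 3.72% of all were, with a median log2 fold change of -0.10. At the low dose, 2 were higher (11.6% of all 16597 tested) and 61, or 40.7%, were lower (7.89% of all), with a median of -0.84. The vehicle group of both comparisons holds MS-183. Without it, the high dose gave 7 higher (15.1% of all) and 41 lower (11.6% of all) with a median of -0.21, and the low dose 3 higher (20.1%) and 99 lower (16.9%) with a median of -0.86. Without MS-113 or without MS-115, both of the low dose, 40 were lower at the low dose (4.84% and 5.01% of all tested). The lower calls at the low dose numbered 22 without a count filter (1.46% of all) and 28 with limma (3.3%), and those at the high dose 4 without a count filter (0.583%) and 26 with DESeq2 (11.1%). The 2 comparisons share their vehicle libraries.

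The hepatocyte vehicle libraries at 24 h were themselves unlike those at 9 h in these transcripts. With MS-183 left out, the median log2 change of the vehicle mean from 9 to 24 h was 0.80 over the 150, with 91.3% above 0 and 37.3% above 1. Over ranked transcripts the median was 0.003, with 50.1% above 0 and 4.96% above 1. The vehicle median change was -0.10 in renal cells and -0.06 in cardiomyocytes, where it was -0.10 and -0.05 over ranked transcripts. In treated hepatocytes the low dose had -0.21 and the high dose -0.05, where ranked transcripts had 0.03 and 0.10. In treated renal cells and cardiomyocytes the lowest median was -0.38, at the high dose in cardiomyocytes (-0.11 over ranked transcripts). The 9 h vehicle and high-dose levels were part of the rule, so these changes carry no test. Whether the separate numbering of the 24 h vehicle libraries has a part in this was not tested.

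Single transcripts showed where the vehicle libraries stood. ENSRNOT00000044788 in hepatocytes held 117.4, 121.6, 129.3, 139.4 and 157.1 CPM with vehicle at 9 h and 56.2 CPM in MS-183 and 506, 556, 569 and 675 CPM in the other 4 vehicle libraries at 24 h. At 24 h it held 142.6, 143.3, 147.3, 147.5 and 167.2 CPM at the low dose and 461, 512, 547, 570.0 and 671 CPM at the high dose. The low-dose libraries thus stood near the 9 h vehicle level, and the 24 h vehicle libraries other than MS-183 stood with the high dose. Without MS-183 the high dose differed from vehicle by -0.09 ± 0.13 (SE, edgeR adjusted p = 0.624) and the low dose by -2.01 ± 0.09 (SE, edgeR adjusted p = 2.25e-08). ENSRNOT00000047634 was alike, at 702 to 798 CPM in these 4 vehicle libraries, 256 to 319 CPM at the low dose and 719 to 913 CPM at the high dose.

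A few transcripts were called higher than vehicle in hepatocytes at 24 h. ENSRNOT00000011134, of 2092 bases, held 4.01 CPM in MS-183 and 15.8, 16.7, 17.6 and 18.6 CPM in the other vehicle libraries. It held 77.8, 78.5, 81.1, 82.3 and 82.96 CPM at the low dose and 146.1, 146.4, 155.99, 159.6 and 164.2 CPM at the high dose. The 3 groups were ordered by dose without overlap, and the log2 fold changes over vehicle were 2.24 ± 0.19 for the low and 3.23 ± 0.22 for the high dose (SE, edgeR adjusted p = 3.75e-05 and 1.39e-05). Without MS-183 they were 2.16 and 3.14. Its vehicle level at 9 h had been 53.7 to 58.1 CPM, so here the vehicle level was lower at 24 h. Counts of this transcript were whole in all 90 libraries.

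The other transcripts higher at the high dose than with vehicle in hepatocytes were ENSRNOT00000018889 and, outside the rule for naming and chosen after its value was seen, ENSRNOT00000000718. ENSRNOT00000018889 held 4.01 CPM in MS-183, 31.6, 33.7, 34.7 and 37.5 CPM in the other vehicle libraries and 79.7, 91.3, 93.2, 95.4 and 95.5 CPM at the high dose. Every high-dose library was above every vehicle library, and the log2 fold change was 1.52 ± 0.28 (SE, edgeR adjusted p = 0.00568), or 1.38 ± 0.08 without MS-183 (SE, edgeR adjusted p = 6.81e-07). The call was lost without a count filter and with limma. ENSRNOT00000000718 rose by 2.23 ± 0.30 (SE, edgeR adjusted p = 0.00102), and also by 2.07 at the low dose.

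The largest called fall in hepatocytes at the high dose was that of ENSRNOT00000001234, of 6471 bases. It held 53.7, 84.95, 117.3, 119.8 and 132.1 CPM with vehicle, 20.8, 26.9, 38.2, 39.4 and 41.7 CPM at the low dose and 16.2, 18.03, 21.1, 21.4 and 21.7 CPM at the high dose. Every high-dose library was below every vehicle library, and the log2 fold change was -2.43 ± 0.24 (SE, edgeR adjusted p = 0.000142). Its vehicle level at 9 h had been 7.49 to 13.9 CPM. In renal cells the same transcript rose by 0.88 ± 0.03 (SE, edgeR adjusted p = 5.91e-09) and in cardiomyocytes by 0.92 ± 0.06 (SE, edgeR adjusted p = 4.4e-07). Its counts were whole in 3 of 90 libraries.

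Among the 5 transcripts whose smallest change over vehicle at 24 h was largest, ENSRNOT00000065288, of 3859 bases, held 40.5, 40.9, 42.2, 42.7 and 43.1 CPM with vehicle and 86.6, 89.3, 90.2, 91.1 and 96.5 CPM at the high dose in renal cells, a rise of 1.06 ± 0.05 (SE, edgeR adjusted p = 2.1e-08). In cardiomyocytes it held 6.58, 6.79, 6.83, 7.39 and 7.58 CPM with vehicle and 17.6, 19.2, 19.9, 21.2 and 22.5 CPM at the high dose, a rise of 1.50 ± 0.08 (SE, edgeR adjusted p = 2.17e-07). In hepatocytes the vehicle libraries held 28.8, 28.97, 30.5 and 30.6 CPM and 36.1 CPM in MS-183, and the high-dose libraries 39.03 to 44.4 CPM. The groups did not overlap in any cell type, but the hepatocyte log2 fold change of 0.44 ± 0.11 (SE, edgeR adjusted p = 0.0329) was under the limit on size.

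ENSRNOT00000088478, of 2084 bases, was of low level. In renal cells, where it was called higher, it held 3.10 to 4.35 CPM with vehicle and 4.21 to 8.81 CPM at the high dose, ranges that overlap, with a log2 fold change of 0.79 ± 0.19 (SE, edgeR adjusted p = 0.00513). In cardiomyocytes it held 1.49 to 2.05 CPM with vehicle and 0.310 CPM in MS-178 and 3.19 to 4.70 CPM in the other high-dose libraries. The log2 fold change there was 0.81 ± 0.48 (SE, edgeR adjusted p = 0.243), and without MS-178 it was 1.08 ± 0.16 (SE, edgeR adjusted p = 0.000483). In hepatocytes it was 0.49 ± 0.35 (SE, edgeR adjusted p = 0.426). The remaining 3 of the 5 were ENSRNOT00000047634, ENSRNOT00000018889 and ENSRNOT00000026652.

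**Figure D3:**
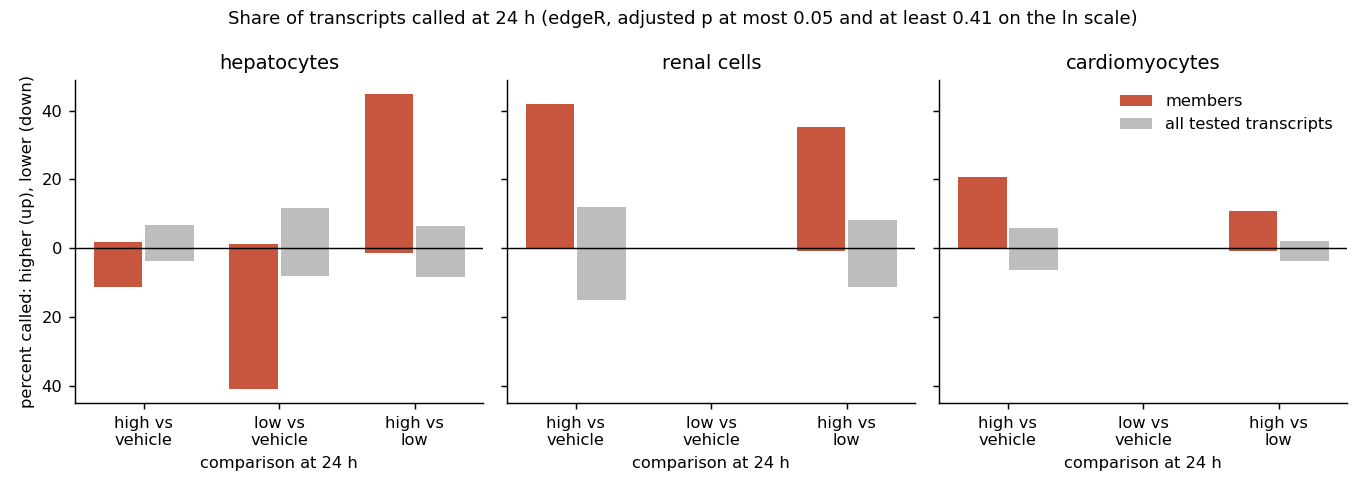
Share of the 150 transcripts and share of all tested transcripts called higher or lower in each comparison at 24 h, in percent. At the high dose against vehicle, 42% of the 150 were higher in renal cells, 20.7% in cardiomyocytes and 2% in hepatocytes, beside 12%, 6.01% and 6.65% of all tested.

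Across cell types at 24 h, 72 of the 150 were called higher at the high dose than with vehicle in at least 1 cell type (48%, beside 17.9% of ranked transcripts), and 78 in none. Renal cells and cardiomyocytes shared 23 called transcripts, or 15.3% of the 150, beside 1.79% of ranked transcripts. The 23 were 36.5% of those called in renal cells and 74.2% of those called in cardiomyocytes, where the shares over ranked transcripts were 16.8% and 36.7%. ENSRNOT00000018889 was the single transcript called in all 3 cell types, where 0.0438% of ranked transcripts were. Another 9 were called higher in renal cells and lower in hepatocytes (6%, beside 0.832% of ranked transcripts). At the high dose against the low dose, 93 were called higher in at least 1 cell type (62%, beside 12.8% of ranked transcripts) and 5 in all 3 (3.33%, beside 0.0963%). The 5 were ENSRNOT00000047634 and, chosen after their values were seen, ENSRNOT00000007698, ENSRNOT00000061950, ENSRNOT00000081924 and ENSRNOT00000087471.

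The difference between cell types in the high-dose change at 24 h was tested as an interaction in 1 edgeR fit of 30 libraries with Benjamini-Hochberg adjustment, without a limit on size. The change was larger in renal cells than in hepatocytes for 80 of the 150 (17.2% of all 20448 tested) and larger in hepatocytes for 5 (16.6% of all), with a median difference of -0.73, hepatocytes minus renal cells. Those 5 were ENSRNOT00000011134, ENSRNOT00000014348, ENSRNOT00000075167 and, chosen after their values were seen, ENSRNOT00000000718 and ENSRNOT00000084991. It was larger in cardiomyocytes than in hepatocytes for 50 (12.7% of all) and larger in hepatocytes for 10 (13.9% of all), with a median difference of -0.35. It was larger in renal cells than in cardiomyocytes for 31 (7.19% of all) and larger in cardiomyocytes for 9 (6.98% of all), with a median difference of 0.48. The 40 called differences between renal cells and cardiomyocytes became 86 (35.2% of all) with only the 20 libraries of these cell types in the fit, 66 (21.5%) with DESeq2 and 25 (8.76%) with limma, which also gave 46 (22%) in place of 85 between hepatocytes and renal cells and 33 (17.4%) in place of 60 between hepatocytes and cardiomyocytes. Without MS-183, the change was larger in renal cells than in hepatocytes for 70% of the 150 (23% of all tested) and larger in hepatocytes for 6.67% (23.5% of all). It was larger in cardiomyocytes than in hepatocytes for 57.3% (18.7% of all) and larger in hepatocytes for 8% (20.8% of all). The hepatocyte change was taken from the 24 h vehicle libraries, whose median change from 9 h was 0.80 over the 150, without MS-183. Against the low dose the order was another, with median changes of 0.58 in hepatocytes, 0.44 in renal cells and 0.16 in cardiomyocytes. No interaction was tested for that comparison.

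ENSRNOT00000011166 had the largest called difference between hepatocytes and renal cells, at -4.77 ± 0.36 on the log2 scale (SE, edgeR adjusted p = 2.4e-11), and between renal cells and cardiomyocytes, at 2.96 ± 0.35 (SE, edgeR adjusted p = 7.82e-07). The second difference was not called with limma. In hepatocytes at 24 h its vehicle libraries held 0 CPM in MS-183 and 31.8, 42.4, 48.7 and 55.5 CPM in the others, and its high-dose libraries held 33.95, 37.4, 40.6, 40.8 and 44.7 CPM. These overlap. The hepatocyte vehicle level was over the 2.27 to 4.08 CPM of renal vehicle libraries, apart from MS-183. ENSRNOT00000001234 had the largest called difference between hepatocytes and cardiomyocytes, at -3.30 ± 0.21 (SE, edgeR adjusted p = 1.21e-12).

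The size of the ratio at 9 h and the change at 24 h ran together to differing degrees. Across the 150 transcripts, which are not independent replicates, Spearman's rho of the 9 h log2 ratio with the 24 h log2 fold change of high dose against vehicle was 0.45 in renal cells, 0.34 in cardiomyocytes and 0.13 in hepatocytes. With the change of high dose against low dose it was 0.42, 0.25 and 0.54 in the same order. All points share the libraries of their group, so the coefficients are given as a description.

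**Figure D4:**
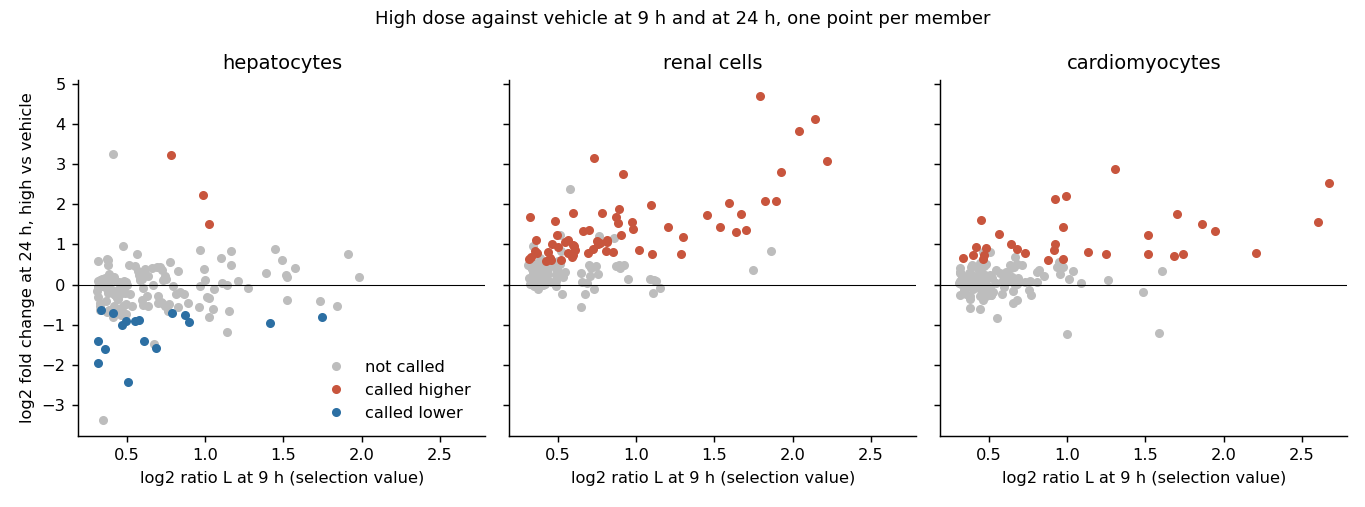
Log2 ratio of high dose to vehicle at 9 h (horizontal) against the log2 fold change of high dose to vehicle at 24 h from edgeR (vertical) for each of the 150 transcripts in the 3 cell types, 1 point per transcript. In renal cells 93.3% of the points lie above 0 at 24 h and in cardiomyocytes 76.7%, while in hepatocytes 38% do.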

How the data were processed

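RNA from 90 libraries was analysed, in 18 groups of 5 given by the sample labels. The tables that the authors deposited give an estimated count and a TPM value per target, made with Kallisto (version 0.42.4) on the Rnor_6.0 transcriptome from 150-bp paired reads of stranded poly-A libraries. An estimated count need not be whole, because reads that match several transcripts are divided, and one within 1e-06 of a whole number was taken as whole. The tables list 65166 targets, and the 25095 genomic intervals among them were left out. The 2 length columns are no measurement per sample.

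CPM was the estimated count scaled to 1000000 counts on transcripts. At 24 h, counts were rounded to whole numbers and groups compared by the quasi-likelihood test of edgeR 4.0.16 under R 4.3.3 (default filterByExpr, then TMM, glmQLFit and glmQLFTest), 10 libraries to a fit, with Benjamini-Hochberg adjustment. The thresholds on p and fold follow the study's. Interactions between cell types were fitted over 30 libraries. The alternatives were DESeq2 1.42.0, limma 3.58.1 on log2(CPM + 0.5), upper-quartile normalization, no filter beyond 1 count, all libraries of a cell type in 1 fit (for interactions, only those of the 2 cell types), and each library left out. For the rule they were TPM, TMM, 5 CPM, a pseudocount of 0.25 and medians. The functions were tested on simulated data. The libraries held 10519414 to 55822031 counts on transcripts, apart from MS-183, so 1 CPM stands for 10.5 to 55.8 counts in these.

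The members, lists and tests were chosen with earlier results of these data known. Transcripts named are the first 8 by rank, the 5 with the largest smallest change at 24 h, those with the largest called change per cell type and the largest called difference per pair of cell types, the 2 on either side of the limit, and the longest, shortest and most abundant. Planned lists of stress genes and cell markers could not be matched without gene symbols. Transcripts were not matched to genome positions or sequences.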

Additional observations from a re-analysis of the deposited data

Results flagged for a closer look

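In each group of 5 libraries of 12 named transcripts, 216 groups in all, the highest or lowest library was compared with its nearest neighbour, and 25 were set far apart by Dixon's test. Chance sets apart about 1 in 20 such groups. Libraries MS-183, MS-145, MS-158 and MS-172 gave 15 of the 25. Low CPM values in MS-183 rest on few counts, as given above. In hepatocytes with vehicle at 24 h, MS-183 was lowest for ENSRNOT00000005085 (16.2 CPM, nearest other 434 CPM), ENSRNOT00000047634 (96.3 CPM, 702 CPM), ENSRNOT00000027891 (16.04 CPM, 157.7 CPM), ENSRNOT00000018889 (4.01 CPM, 31.6 CPM), ENSRNOT00000044788 (56.2 CPM, 506 CPM) and ENSRNOT00000011134 (4.01 CPM, 15.8 CPM). It was highest for ENSRNOT00000014348 (36.1 CPM, 17.98 CPM). Among low-dose renal libraries at 24 h, MS-145 was lowest for ENSRNOT00000018889 (23.3 CPM, 43.2 CPM), ENSRNOT00000011134 (238 CPM, 409 CPM), ENSRNOT00000001234 (107.2 CPM, 216 CPM) and ENSRNOT00000026559 (0.584 CPM, 78.98 CPM). Among low-dose cardiomyocyte libraries at 9 h, MS-158 was lowest for ENSRNOT00000075167 (9.26 CPM, 39.96 CPM) and ENSRNOT00000001234 (55.3 CPM, 112.2 CPM) and highest for ENSRNOT00000011166 (19.5 CPM, 7.997 CPM). Among those at 24 h, MS-172 was lowest for ENSRNOT00000044788 (21.05 CPM, 44.5 CPM).

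The other 10 fell in other libraries. ENSRNOT00000080797 was set apart in 4 groups, at 117.4 CPM in MS-120 (hepatocytes, high dose, 24 h), 21.8 CPM in MS-132 (renal cells, high dose, 9 h), 69.1 CPM in MS-126 (renal cells, low dose, 9 h) and 3.71 CPM in MS-121 (renal cells, vehicle, 9 h). In each of these the other libraries were lower. ENSRNOT00000027891 reached 235 CPM in MS-120 and ENSRNOT00000044788 reached 167.2 CPM in MS-114 (hepatocytes, low dose, 24 h). The lowest of their groups were ENSRNOT00000018889 at 79.7 CPM in MS-119 (hepatocytes, high dose, 24 h), ENSRNOT00000044788 at 509 CPM in MS-148 (renal cells, high dose, 24 h), ENSRNOT00000011166 at 42.7 CPM in MS-98 (hepatocytes, low dose, 9 h) and ENSRNOT00000005085 at 1.89 CPM in MS-168 (cardiomyocytes, vehicle, 24 h).

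The median over the 150 transcripts of the log2 difference from the vehicle mean was set apart in 3 of 18 groups, at -1.49 in MS-183, where the vehicle mean was taken without it, at -0.43 in MS-158 and at -0.52 in MS-145. Over all ranked transcripts the same median was -1.68 in MS-183, -0.64 in MS-158 and -0.62 in MS-145.

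The high-dose change at 24 h differed between cell types by the interaction test of edgeR for 85 of the 150 transcripts between hepatocytes and renal cells (33.8% of all tested), 60 between hepatocytes and cardiomyocytes (26.6% of all) and 40 between renal cells and cardiomyocytes (14.2% of all). Changes in hepatocytes were taken from the 24 h vehicle libraries, with the limit given above. The largest called differences were -4.77 for ENSRNOT00000011166 between hepatocytes and renal cells, -3.30 for ENSRNOT00000001234 between hepatocytes and cardiomyocytes and 2.96 for ENSRNOT00000011166 between renal cells and cardiomyocytes.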

How the results depend on the processing

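Under the alternatives other than leaving out a library, 24 of the recomputed counts and medians moved by over 1.5 times or beyond the spread, and 89 did not. Shares in parentheses are over all tested transcripts. For hepatocytes at the high dose against vehicle, DESeq2 called 6 higher (10.9%) and 26 lower (11.1%), all 15 libraries in 1 fit 5 higher (11.5%) and 26 lower (8.76%), and no filter 4 lower (0.583%). At the low dose against vehicle in hepatocytes, 22 were lower without a filter (1.46%) and 28 with limma (3.3%). In renal cells at the high dose, upper-quartile normalization called 1 lower than vehicle (15.8%), and against the low dose 0 were lower without a filter (6.6%), with limma (10.2%) or with 15 libraries in 1 fit (12.7%). In cardiomyocytes at the high dose, 1 was lower than vehicle with DESeq2 (7.16%), upper-quartile normalization (6.65%), no filter (3.9%) or limma (6.7%), and 6 and 5 were lower than at the low dose with DESeq2 (6.53%) and with 15 libraries in 1 fit (6.23%). At the low dose in cardiomyocytes, DESeq2 called 5 higher (0.971%) and the fit of 15 libraries 2 (0.374%). The difference between renal cells and cardiomyocytes was called for 66 transcripts with DESeq2 (21.5%), 25 with limma (8.76%) and 86 with only the 20 libraries of these cell types (35.2%). Limma called 46 between hepatocytes and renal cells (22%) and 33 between hepatocytes and cardiomyocytes (17.4%). The cause was not tested.

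With each library left out in turn, 246 of 271 counts and medians stayed so. For hepatocytes, calls at the high dose against vehicle ranged from 3 to 7 higher (3.93% to 15.1%) and from 13 to 41 lower (2.11% to 11.6%), at the low dose from 2 to 3 higher (7.79% to 20.1%) and from 40 to 99 lower (4.84% to 16.9%), and against the low dose from 61 to 69 higher (6.06% to 7.01%) and from 1 to 2 lower (7.36% to 8.54%). For renal cells they ranged at the high dose from 61 to 68 higher (11.5% to 12.5%) and from 0 to 1 lower (14.2% to 15.1%) than vehicle, from 48 to 55 higher (6.99% to 10.6%) and from 0 to 1 lower (9.74% to 12.6%) than the low dose, and at the low dose from 0 to 2 higher (0.0167% to 0.206%). For cardiomyocytes they ranged at the high dose from 29 to 32 higher (5.31% to 6.42%) and from 0 to 2 lower (5.74% to 7.54%) than vehicle, from 13 to 19 higher (1.24% to 3.71%) than the low dose, and at the low dose from 0 to 3 higher (0% to 0.553%). Called differences ranged from 49 to 98 between hepatocytes and cardiomyocytes (22.1% to 39.4%) and from 36 to 40 between renal cells and cardiomyocytes (10.7% to 13%). In hepatocytes the largest counts of lower calls and of differences came without MS-183.

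Of the 150 transcripts, 72% were chosen again from TPM, 84% with TMM scaling, 85.3% with a minimum of 5 CPM, 95.3% with a pseudocount of 0.25 and 83.3% from medians over libraries. With TMM scaling all 150 kept 3 ratios above 0. Among named transcripts 30 of 435 calls were lost under the alternatives and 40 of 1200 without a library, and none changed direction. The omission of MS-158 at 9 h was chosen after the data were seen. No paired analysis was possible because each replicate number belongs to 1 library and is not shared between groups.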

Other observations

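The rule has a mirror image that was not described above. Of the 11421 ranked transcripts, 1857 had a ratio of high dose to vehicle above 0 in all 3 cell types at 9 h and 2018 had one below 0 in all 3. Beyond 0.3 in size the numbers were 170 and 213. Across the ranked transcripts Spearman's rho of the 9 h ratios was 0.13 between hepatocytes and renal cells, 0.14 between hepatocytes and cardiomyocytes and 0.36 between renal cells and cardiomyocytes, given as a description since all transcripts share the same libraries.

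Among the 62 transcripts of the 150 whose counts were whole in all 90 libraries, edgeR with Benjamini-Hochberg adjustment called 24 higher at the high dose than with vehicle in renal cells at 24 h (38.7%), 17 in cardiomyocytes (27.4%) and 2 in hepatocytes (3.23%). Of the 4393 ranked transcripts with such counts, 11.1%, 4.44% and 5.35% were called higher. In hepatocytes 7 of the 62 were called lower than vehicle (11.3%, beside 3.73% of the 4393), and 30 were higher at the high dose than at the low dose (48.4%, beside 5.44%).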
